A study of Mus musculus with 2 samples.

Results

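The genes of the heterotrimeric G proteins and of the regulators of G protein signalling were compared between a synaptosome fraction and the total homogenate of mouse brain. They were chosen by symbol: Gna, Gnb1 to Gnb5, Gng and numbered Rgs genes, without Rgs9, which gave 54 of the 23329 genes in the files. Among them were 16 alpha subunits, 5 beta subunits, 12 gamma subunits and 21 RGS genes, the last counting the anchor proteins Rgs7bp and Rgs9bp. Measured values played no part in the rule. Both groups were wild-type C57BL/6 mice, with whole brain as the tissue. The homogenate group held 1 library and the synaptosome group held 1 library. The titles of both libraries carry the tag CT10, whose meaning the labels do not give. No treatment is named, and age, sex and the number of brains behind a library are not given in the labels. A synaptosome is a pinched-off nerve ending, often with a piece of the facing postsynaptic membrane, and the fraction collected here was the layer between 3% and 10% Percoll of a density gradient. The series title names the search for mRNAs enriched at synapses as its purpose.

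A heterotrimeric G protein sits on the inner face of the cell membrane as an alpha subunit bound to a beta-gamma pair. An activated receptor makes the alpha subunit release GDP and take up GTP, upon which alpha and beta-gamma separate and each acts on effectors, until the alpha subunit hydrolyses its GTP. RGS proteins speed that hydrolysis and so shorten the signal, and in brain this cycle serves the receptors for dopamine, acetylcholine, opioids, GABA and many other transmitters.

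The homogenate library held 15210838 expected counts, which are reads shared out among transcripts by an estimation program, and the synaptosome library held 13709528. Ratios are synaptosome over homogenate after TMM scaling, which sets the typical gene near a ratio of 1, and each has an exact 95% Clopper-Pearson counting interval. The most abundant genes stood higher than that, with a median log2 ratio of 0.84 in the top bin of 20 bins of abundance. In what follows, a gene called higher or lower lay 2-fold or more from 1 with an interval that left out 1. Pairs of values are given with the homogenate first and the synaptosome fraction second. With 1 library in each fraction there is no spread between animals or preparations and no p-value, so every ratio compares these 2 libraries only. Over both libraries 14153 genes averaged 1 CPM (counts scaled to equal library totals) or more, of which 12.8% were higher and 9.1% lower. With library totals in place of TMM the median log2 ratio of all genes moved by -0.49, and 4.49% were higher and 25.6% lower. Levels of different genes are compared as TPM, which is per transcript length, and on that scale the median gene had a log2 ratio of -0.55. Markers of neurons, astrocytes, oligodendrocytes and microglia were present in both libraries. Of 8 astrocyte markers 7 were higher, and their summed TPM was 3080.8 and 9695.0. Of 7 endothelial markers 7 were lower, with sums of 221.5 and 16.1. Of 8 neuronal markers 1 was higher (Camk2a, a kinase with dendritic mRNA) and 3 were lower (Snap25, Tubb3 and Gad1). In tissue and fractions such as these, fewer cells or cell fragments of a type and less RNA in each cannot be told apart.

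Under TMM scaling gamma subunit mRNAs were more often higher than lower in the synaptosome fraction, and RGS mRNAs were more often lower than higher. The filter on low counts left 44 of the 54 genes, of which 10 were higher, 7 were lower and 27 lay between. The higher share was 22.7% of those kept beside 12.8% of all genes, and the lower share 15.9% beside 9.1%. Of 11 gamma subunits kept, 6 were higher and 2 lower, with a median log2 ratio of 1.29. Of 12 alpha subunits kept, 3 were higher and 0 lower (median 0.34). Of 5 beta subunits 0 were higher and 1 was lower (median -0.79). Of 16 RGS genes kept, 1 was higher and 4 were lower (median -0.38). The median of all genes was -0.01. Set against genes of like abundance, the medians were 1.21 for gamma, -0.14 for alpha, -0.71 for beta and -0.41 for RGS. Under library totals 6 of the 44 were higher and 13 lower, where 4.49% and 25.6% of all genes were. Under TPM 6 were higher and 14 lower, where 3.99% and 27.6% of all genes were. The alpha medians were -0.15 and -0.30, so the side of 0 on which the alpha median lay depends on the scaling. The median of all genes was -0.51 and -0.55 under library totals and TPM. Library totals move every gene by the same amount, so a median already below 0 stayed there by construction. Beside those values the medians were 0.80 and 0.76 for gamma, -1.28 and -1.33 for beta, and -0.88 and -0.92 for RGS. Under library totals 4 gamma subunits were higher and 2 lower, and under TPM 4 and 2.

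**Figure D1:**
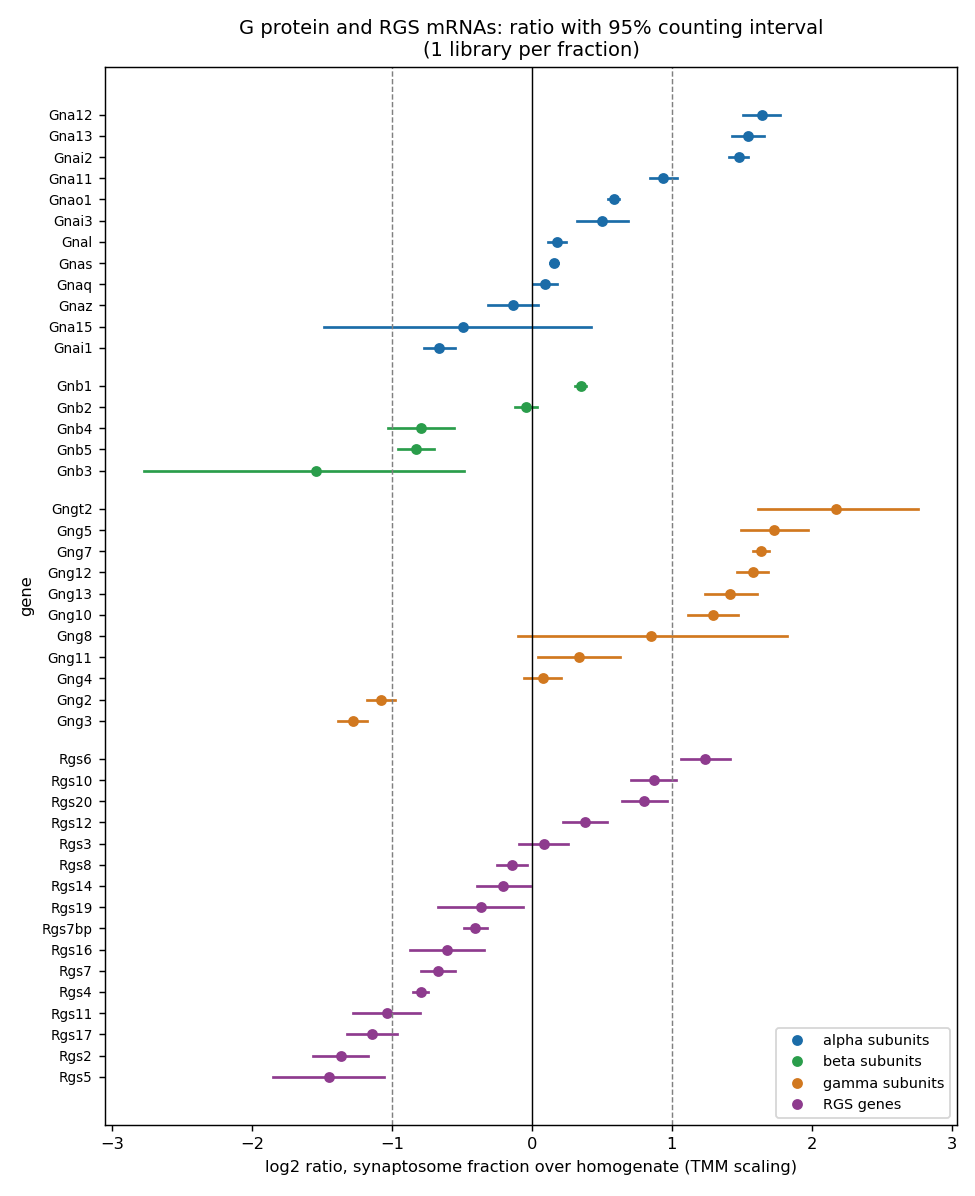
The horizontal axis is the log2 ratio of synaptosome fraction over homogenate for the 44 genes kept, with 1 point per gene, the 95% counting interval as a bar, colour by class and dashed lines at 2-fold. The 6 gamma subunits called higher lie beyond the 2-fold line on the right, while Gng2 and Gng3 and most RGS genes lie to the left; under library totals every point would lie 0.49 further left, and Gnai2, Gng10, Gng13 and Rgs6 would fall inside the 2-fold line.

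Among the alpha subunits the G12/13 family stood highest. These subunits act on the cytoskeleton through guanine nucleotide exchange factors that carry an RGS domain. Gna12 (mm10, chr5:140759944-140830431) had 713 and 1426 counts, or 62.4 and 134 TPM, a ratio of 3.12 (95% counting interval 2.85 to 3.42). Gna13 (chr11:109362794-109401369) had 966 and 1807 counts, or 24.7 and 49.7 TPM, a ratio of 2.92 (2.70 to 3.16). Both were called higher, and both stayed at least 2-fold higher under library totals (2.22 and 2.08) and TPM (2.15 and 2.01).

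The Gi/o family, which lowers cAMP and whose beta-gamma partners open potassium channels, did not move as a block. Gnai2 (chr9:107614138-107635342) had 2592 and 4626 counts, or 195 and 373 TPM, a ratio of 2.79 (2.66 to 2.93) that was 1.98 under library totals, just short of the 2-fold line. It stood 0.64 log2 units above genes of like abundance. Its close relative Gnai1 (chr5:18265135-18360413) went the other way, with 2243 and 909 counts, or 113 and 49.3 TPM, and was 1.58-fold lower (1.46 to 1.71). Under library totals Gnai1 was below the 2-fold line at 0.450. The TPM of Gnai1 was 58.1% of that of Gnai2 in the homogenate library and 13.2% in the synaptosome library. Gnai3 lay between at 1.42 (1.25 to 1.61), which was 1.01 under library totals and 0.976 under TPM, so its direction depends on the scaling. Gnaz, a member insensitive to pertussis toxin, had 702 and 409 counts, or 46.9 and 29.4 TPM, and its interval included 1 (ratio 0.910, 0.803 to 1.03).

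Gnao1 (chr8:93810838-93969388) encodes the alpha subunit of Go, the most abundant G protein of brain membranes. It had 11072 and 10634 counts, or 525 and 446 TPM, a ratio of 1.5 (1.46 to 1.54), which was 1.07 under library totals and 0.849 under TPM, so its direction depends on the scaling. That single figure hid opposite positions of its transcripts. The gene makes a first form, GoA (NM_010308), and a second form, GoB (NM_001113384), by using one or the other copy of its last coding exons, so the proteins share most of their length and differ at the end that faces the receptor. The copies of the seventh exon are printed here because they are among the exons that tell the forms apart. Each has 154 bases, they are identical at 81.2% of positions, and capitals mark the 29 bases that differ (GENCODE M21 on GRCm38, plus strand, chr8:93963384-93963537 for GoA and chr8:93953975-93954128 for GoB).
GoA seventh exon: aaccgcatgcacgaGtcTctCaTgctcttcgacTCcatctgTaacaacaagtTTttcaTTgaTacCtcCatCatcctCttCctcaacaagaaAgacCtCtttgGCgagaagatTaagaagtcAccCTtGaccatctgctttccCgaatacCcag
GoB seventh exon: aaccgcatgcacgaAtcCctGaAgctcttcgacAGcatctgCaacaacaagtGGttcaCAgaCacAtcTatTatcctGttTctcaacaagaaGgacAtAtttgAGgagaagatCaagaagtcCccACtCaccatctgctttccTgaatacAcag

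The coding parts of the eighth exon, which end the protein, differ more. Each has 185 bases, identical at 68.1% of positions, with the 59 differing bases in capitals (chr8:93966868-93967052 for GoA and chr8:93956065-93956249 for GoB).
GoA eighth exon: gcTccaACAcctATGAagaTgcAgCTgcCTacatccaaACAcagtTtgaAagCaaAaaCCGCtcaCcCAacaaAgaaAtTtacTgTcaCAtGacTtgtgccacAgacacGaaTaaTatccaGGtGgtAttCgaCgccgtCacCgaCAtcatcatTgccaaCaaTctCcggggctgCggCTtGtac
GoB eighth exon: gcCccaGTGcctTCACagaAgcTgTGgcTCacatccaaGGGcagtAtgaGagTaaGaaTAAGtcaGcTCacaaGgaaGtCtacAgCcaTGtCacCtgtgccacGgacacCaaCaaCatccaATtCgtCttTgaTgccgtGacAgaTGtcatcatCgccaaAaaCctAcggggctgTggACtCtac

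GoB had 2866 and 5916 counts, or 75.8 and 168 TPM, and was 3.22-fold higher (3.08 to 3.37). GoA had 8205 and 4719 counts, or 449 and 278 TPM, a ratio of 0.898 (0.866 to 0.931). GoB made up 25.9% of the homogenate counts of the gene (exact 95% binomial interval 25.1 to 26.7) and 55.6% of the synaptosome counts (54.7 to 56.6). In counts GoB was the minor form of the homogenate and the major form of the synaptosome fraction, whereas per length GoA stayed the higher of the pair in both. The GoB transcript of 6005 bases holds 4784 that no other Gnao1 transcript in the files has, and the GoA transcript of 2948 bases holds 1727, so many reads could be placed on 1 form alone. The posterior estimates deposited beside the counts gave the same shares (25.9% and 55.6%). Most of those private bases are outside the coding parts printed above, since the eighth exon of GoB runs over 4630 bases.

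Gs subunits, which activate adenylyl cyclase, lay close to the typical gene. Gnas (chr2:174284320-174346742) was the most abundant member of the whole set, with 22945 and 16391 counts, or 2544 and 1924 TPM, a ratio of 1.12 (1.09 to 1.14). Gnal, the olfactory and striatal counterpart, had 4695 and 3407 counts, or 142 and 111 TPM, a ratio of 1.13 (1.08 to 1.18). Both ratios lay below 1 under library totals (0.793 and 0.805) and under TPM, and both genes stood 0.68 and 0.66 log2 units below genes of like abundance. Of 6 striatal neuron markers 1 was higher and 0 lower, with summed TPM of 1186.1 and 1309.0. Within Gnas, the transcript without the third exon (NM_001077510, the short form of Gs alpha) had 481 and 1174 counts, 3.81-fold higher (3.42 to 4.25). The long form (NM_201616) had 3900 and 3344 counts, a ratio of 1.34 (1.28 to 1.40). In TPM the long form had 369 and 340, so its direction depends on the scaling. The short form made up 2.10% and 7.16% of the gene's counts, a shift below the 10 points set for naming a transcript, and it was singled out after its values were seen. The exon it lacks has 45 bases (chr2:174336747-174336791, plus strand, GENCODE M21 on GRCm38) and is shown because its presence is the main difference between the forms.
Gnas exon absent from the short form: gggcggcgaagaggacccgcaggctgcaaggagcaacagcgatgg
Most Gnas counts were placed on a noncoding transcript, NR_003258, with 17943 and 11319 counts, although only 52 of its 1452 bases are in no other transcript. The long and the short form have 0 such bases, so their division rests on exon junctions and on the estimation.

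Gq family subunits, which activate phospholipase C beta, included no gene called higher or lower. Gna11 came nearest, with 1580 and 1943 counts and a ratio of 1.92 (1.80 to 2.05), and Gnaq, with 2814 and 1927 counts, was at 1.07 (1.01 to 1.13), or 0.760 under library totals. Gna15, a subunit best known from blood cells, had 33 and 15 counts, or 2.76 and 1.35 TPM, and a ratio of 0.710 with a wide interval (0.358 to 1.34).

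Of the 16 alpha genes 10 lie in 5 pairs of neighbours, taken as members less than 300 kb apart, and in each pair 1 gene carried nearly all the counts. Gna12, Gna13, Gnal, Gnao1, Gnas and Gnaz lie in no such pair. Gnai2 lies beside Gnat1, the transducin of rods, which had 1 count in each library, and Gnai3 lies 6.01 kb from Gnat2, the transducin of cones, which had 2 and 8. Gnai1 lies beside Gnat3, the taste subunit gustducin, which had 0 counts in both, where a count of 0 allows up to 3. Gnaq lies beside Gna14, which had 12 and 2, and Gna11 lies 4.51 kb from Gna15. The ratio of Gnat2 was 6.25 with an interval of 1.25 to 60.4, that of Gna14 was 0.260 (0.0283 to 1.17), and Gnat1, Gnat2, Gnat3 and Gna14, below the filter, take no part in the counts of calls. Gnat2 shares 231 bases at 98.7% identity with an annotated gene that is not in the files.

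**Figure D2:**
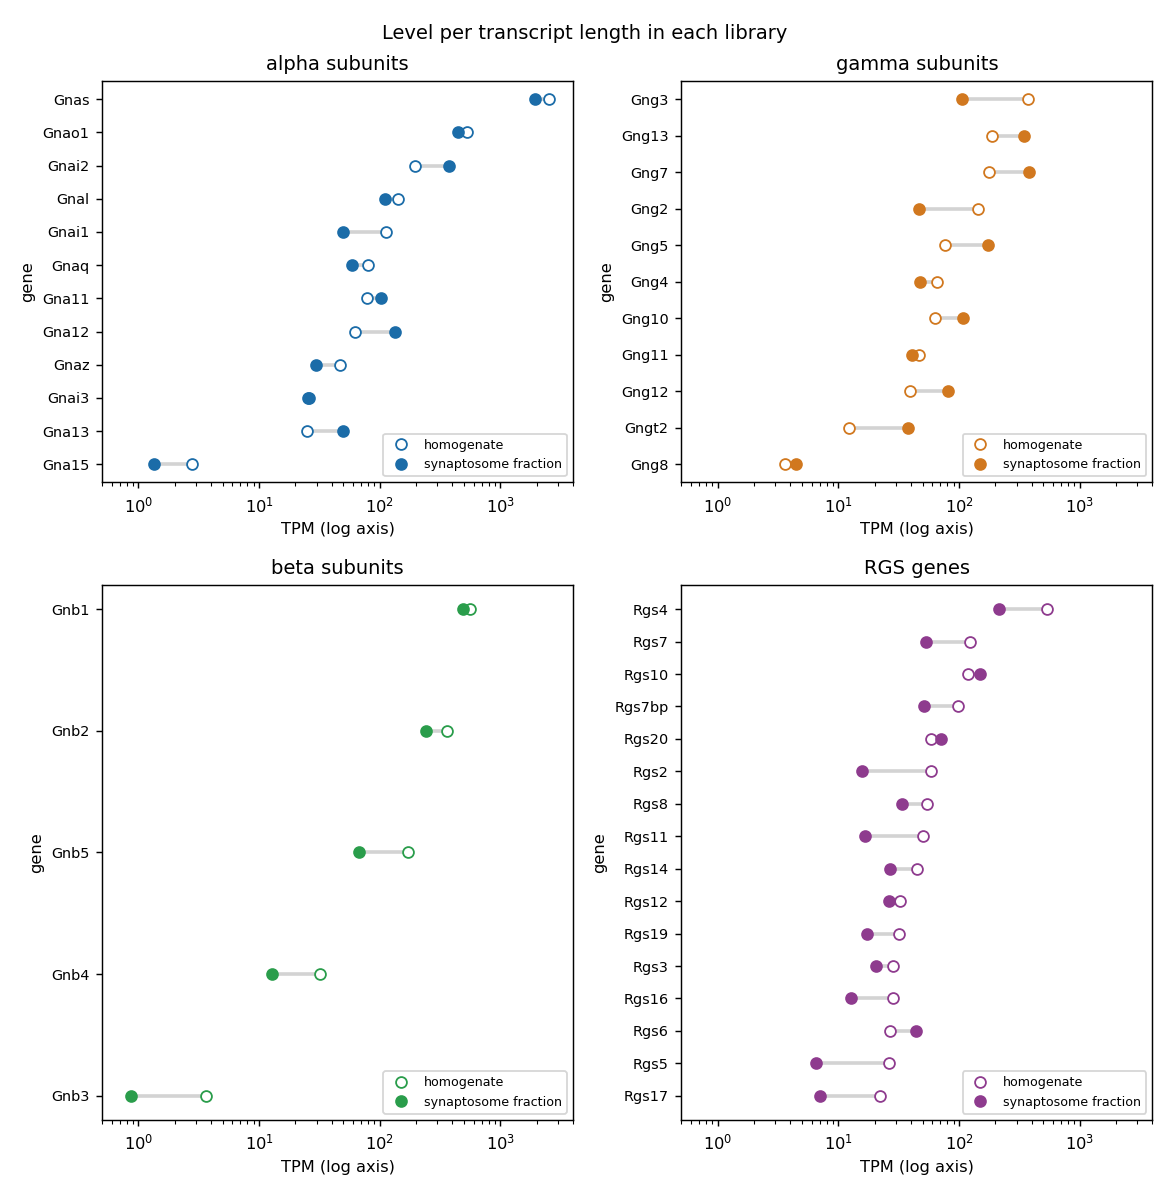
Each panel is a class, the horizontal log axis is the level in TPM, open circles are the homogenate library and filled circles the synaptosome library, with genes ordered by their homogenate level. Gnas stands far above the other alpha subunits in both libraries, Gng3 leads the gamma panel among open circles (371 TPM) but not among filled ones (105 TPM), and Rgs4 is at 535 and 212 TPM.

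Beta subunits, the propeller-shaped partners of gamma, were led by Gnb1 (chr4:155491361-155559269), with 10805 and 8821 counts, or 559 and 489 TPM, a ratio of 1.27 (1.24 to 1.31) that was 0.906 under library totals and 0.876 under TPM. Gnb2 had 3442 and 2144 counts, or 363 and 243 TPM, and its interval included 1 (0.973, 0.921 to 1.03). Gnb5, the divergent beta subunit that pairs with RGS proteins of the R7 family in place of a gamma subunit, had 1875 and 678 counts, or 172 and 66.8 TPM, and was 1.77-fold lower (1.62 to 1.94). Gnb4 had 548 and 203 counts, or 32.2 and 12.8 TPM, and was 1.73-fold lower (1.47 to 2.04). Gnb3 alone was called lower, with 41 and 9 counts, or 3.66 and 0.86 TPM, 2.92-fold (1.40 to 6.83), and it passed the filter only through the homogenate. Under library totals Gnb4 (0.411) and Gnb5 (0.401) were below the 2-fold line too, and with a filter at 10 CPM, which drops Gnb3, no beta subunit was called. Gnb1 supplied 49.5% and 60.2% of the summed beta TPM, and Gnb5 15.2% and 8.22%.

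Gamma subunits are small lipid-anchored proteins that hold the beta-gamma pair to the membrane. Those that were higher came from several branches of the family. Gng7 (chr10:80948624-81014925), the partner of Gnal in striatal neurons, had 3722 and 7404 counts, or 178 and 380 TPM, a ratio of 3.11 (2.99 to 3.23). It stood 0.79 log2 units above genes of like abundance. Gng5 had 214 and 456 counts, or 76.1 and 174 TPM, a ratio of 3.33 (2.82 to 3.93). Gng12 had 1040 and 1989 counts, or 39.3 and 80.9 TPM, a ratio of 2.99 (2.77 to 3.22). These stayed at least 2-fold higher under library totals (2.21, 2.36 and 2.12) and under TPM. Gng13, known from taste cells and retina, was at 2.68 (2.35 to 3.04) with 380 and 651 counts, and Gng10 at 2.45 (2.17 to 2.78) with 415 and 652, but both were within 2-fold under library totals (1.90 and 1.74). Gngt2, the gamma subunit of cone transducin, had 36 and 104 counts, or 12.2 and 37.8 TPM, and the highest ratio of the 44 genes kept, 4.51 (3.06 to 6.79). Its cone partner Gnat2 was at 0.20 and 0.88 TPM and the cone opsin Opn1sw had 1 count in each library. Microglial markers moved with Gngt2: 4 of 7 were higher and 0 lower, Tyrobp at 4.5 and P2ry12 at 1.04, with none at 0 and summed TPM of 345.9 and 561.8. Their part in the Gngt2 value was not tested.

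The gamma subunits Gng2 and Gng3, which are typical of neurons, were called lower. Gng3 (chr19:8836929-8839246) had 3809 and 1004 counts, or 371 and 105 TPM, and was 2.43-fold lower (2.27 to 2.61). Gng2 had 3273 and 994 counts, or 143 and 46.6 TPM, and was 2.11-fold lower (1.96 to 2.27). Gng4, in the same branch, was near the typical gene, with 1211 and 818 counts, or 65.9 and 47.8 TPM, a ratio of 1.05 (0.964 to 1.15), or 0.749 under library totals. The make-up of the class therefore differed between the libraries. Gng3 supplied 31.3% and 7.69% of the summed gamma TPM, while Gng7 supplied 15.0% and 27.8% and Gng13 15.8% and 25.1%. Of the remaining members, Gng11 was at 1.26 (1.03 to 1.55), or 0.898 under library totals, and Gng8 at 1.81 with only 19 and 22 counts (0.934 to 3.53). Gngt1, the rod gamma subunit, lies 6.55 kb from Gng11 and had 0 counts in both libraries. Astrocyte markers moved with the higher gamma subunits and with Gna12, Gna13 and Gnai2: their ratios ran from 1.77 for Gja1 to 5.54 for Gfap, with none at 0. Beside Gng7, 1 of the 6 striatal neuron markers given with Gnal was higher (Penk at 2.33) and 0 were lower. Neuronal markers did not go one way beside Gng2 and Gng3: Snap25, Gad1 and Tubb3 were 2.67-fold, 2.36-fold and 2.08-fold lower, whereas Camk2a was at 3.61, Slc17a7 at 1.91 and Syt1 at 1.47. The summed TPM of all 8 was 7918.6 and 6609.5, with none at 0. Of 6 oligodendrocyte markers 2 were higher, Mbp at 5.31 and Mobp at 3.45, and 0 were lower, with none at 0 and summed TPM of 9284.2 and 21653.1. The part of these cell types in the gamma and alpha values was not tested.

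RGS genes are ordered here by family. R4 proteins are small and consist of little more than the RGS domain. Of 9 listed, 6 were kept, 0 were higher and 2 were lower, with a median log2 ratio of -0.70. Rgs4 (chr1:169741477-169747642), strongly expressed in cortex, was the most abundant RGS gene, with 9752 and 3600 counts, or 535 and 212 TPM, and was 1.73-fold lower (1.67 to 1.80), and at 0.410 under library totals it passed the 2-fold line. It supplied 40.1% and 27.9% of the summed RGS TPM. Rgs2, an activity-induced gene whose protein prefers Gq, had 1091 and 271 counts, or 58.5 and 15.6 TPM, and was 2.58-fold lower (2.26 to 2.96). Rgs5 (chr1:169655501-169693526), a marker of pericytes, had 285 and 67 counts, or 26.0 and 6.57 TPM, and was 2.72-fold lower (2.08 to 3.61). Of 6 mural markers set beside Rgs5, 3 were lower (Kcnj8 at 0.0961, Acta2 at 0.161 and Abcc9 at 0.245) and 1 was higher (Cspg4 at 3.09). Cspg4 was the only mural marker with an interval above 1. Pdgfrb was at 0.875 and Vtn at 1.02, both with intervals that included 1. Kcnj8 had 65 and 4 counts and passed the filter only through the homogenate. None of the mural markers was at 0, and their summed TPM was 136.5 and 86.8. The part of mural cells in the Rgs5 value was not tested. Rgs8, found in Purkinje cells among others, had 1966 and 1140 counts, or 53.8 and 33.5 TPM, a ratio of 0.905 (0.841 to 0.974). Of 3 Purkinje markers, Pcp2 had 0 counts in both libraries, Calb1 was lower at 0.296 and Car8 higher at 4.63. The part of Purkinje cells in the Rgs8 value was not tested. Rgs16 was at 0.659 (0.547 to 0.790) and Rgs3 at 1.06 (0.94 to 1.2), or 0.754 under library totals. Rgs1, Rgs13 and Rgs18, known from blood and immune cells, had 2 and 0, 6 and 5, and 1 and 0 counts.

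Proteins of the R7 family work as dimers with Gnb5 and are held at the membrane by anchor proteins. Rgs6 was the only RGS gene called higher, with 436 and 660 counts, or 26.9 and 43.8 TPM, a ratio of 2.36 (2.09 to 2.67) that was 1.68 under library totals. Rgs7 (chr1:175059076-175492545) had 1866 and 751 counts, or 122 and 53.1 TPM, and was 1.59-fold lower (1.46 to 1.73). Rgs11 was called lower, with 608 and 190 counts, 2.05-fold (1.74 to 2.42). The anchor Rgs7bp had 3591 and 1738 counts, or 97.9 and 50.9 TPM, and was 1.32-fold lower (1.25 to 1.40), and Rgs9bp had 5 and 4 counts. Rgs7, Rgs11, Rgs7bp and their partner Gnb5 thus lay below a ratio of 1 while Rgs6 lay above it, and Rgs6 keeps its side under library totals and TPM (1.63).

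The RZ family, which favours Gz and Gi subunits, was split. Rgs17 was called lower, with 1145 and 333 counts, or 22.3 and 6.97 TPM, 2.20-fold (1.95 to 2.50). Rgs20 was at 1.75 (1.56 to 1.96) with 590 and 660 counts, or 58.6 and 70.1 TPM, and Rgs19 was at 0.778 (0.630 to 0.957). In the R12 family, whose larger members Rgs12 and Rgs14 carry further domains, 0 of 3 genes were called. Rgs10, the small member found in microglia and neurons, had 586 and 686 counts, or 117 and 148 TPM, and a ratio of 1.83 (1.63 to 2.04). Rgs12 was at 1.3 (1.17 to 1.45), with 0.925 under library totals and 0.803 under TPM, and Rgs14, abundant in hippocampal area CA2, at 0.869 (0.762 to 0.991). By TPM Rgs10 supplied 8.80% and 19.4% of the class. Microglial markers, given with Gngt2 above, moved with Rgs10, and their part was not tested. Rgs22, outside these families, had 15 and 8 counts.

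Of the 21 RGS genes 10 lie on chromosome 1, among them every R4 gene listed here except Rgs3. Rgs5 and Rgs4 are 48.0 kb apart and Rgs8 and Rgs16 are 42.7 kb apart, and all 4 had ratios below 1, from 0.367 to 0.905. Rgs2 lies 135 kb from Rgs13, whose 6 and 5 counts were below the filter. Across the 44 genes kept, the log2 ratio had a Spearman correlation of 0.08 with mean CPM and of -0.10 with the length of the longest transcript, given as a description across genes of the same 2 libraries. Over all 14153 genes the corresponding values were 0.24 and 0.01.

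Transcripts within a gene could be compared for 13 members with more than 1 transcript and at least 100 counts in each library. Ratios of transcripts are given under TMM scaling. Under library totals each of their log2 ratios would lie 0.49 lower, while shares of a gene's counts would not change. In 5 of these, at least 1 transcript's share of the gene differed by 10 percentage points or more with exact binomial intervals apart, and 45.0% of the 2575 genes open to the same comparison met that mark. Gnao1, described above, had the largest shift of the 5. Rgs12 came next: its longest transcript, NM_173402, had 146 and 280 counts and was 2.99-fold higher (2.44 to 3.68), while NM_001163512 had 601 and 343 counts and a ratio of 0.891 (0.778 to 1.02). The longer form made up 19.5% (16.8 to 22.6) and 44.9% (41.0 to 49.0) of the gene's counts. It holds 2177 bases that the shorter form lacks.

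In Rgs7, NM_001199003 had 1679 and 585 counts and was 1.84-fold lower (1.67 to 2.02), while NM_011880 had 187 and 166 counts and was 1.39-fold higher (1.12 to 1.72), so that the second form made up 10.0% (8.70 to 11.5) and 22.1% (19.2 to 25.2) of the gene's counts. The forms differ by the exon before the last, which is 78 bases long and present in NM_001199003 only. Its coding part of 51 bases is shown, since that exon is what separates these transcripts (GENCODE M21 on GRCm38, chr1:175066644-175066694, minus strand).
Rgs7 exon before the last: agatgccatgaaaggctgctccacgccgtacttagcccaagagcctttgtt
In Gnb1, NM_001160016 had 2912 and 4053 counts, 27.0% and 46.0% of the gene, a ratio of 2.17 (2.07 to 2.28), and NM_001160017 had 5500 and 3295, 50.9% and 37.4%, a ratio of 0.935 (0.896 to 0.977). Neither of these Gnb1 transcripts has a base that is in no other transcript of the gene. In Gng12, NM_001177558 had 256 and 739 counts, 24.6% and 37.2% of the gene, a ratio of 4.51 (3.90 to 5.22). NM_025278 had 226 and 194 counts, 21.7% and 9.75%, a ratio of 1.34 (1.10 to 1.63). Its TPM was 8.48 and 7.81, so its direction too depends on the scaling. NM_001177558 has 99 bases that are in no other transcript, while NM_025278 has 0, as do most of the 6 transcripts of the gene. The posterior estimates put NM_001177558 at 16.6% and 28.2%. The division of reads is less certain for Gnb1 and Gng12 than for Gnao1 and Rgs12, and intervals do not cover that uncertainty.

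**Figure D3:**
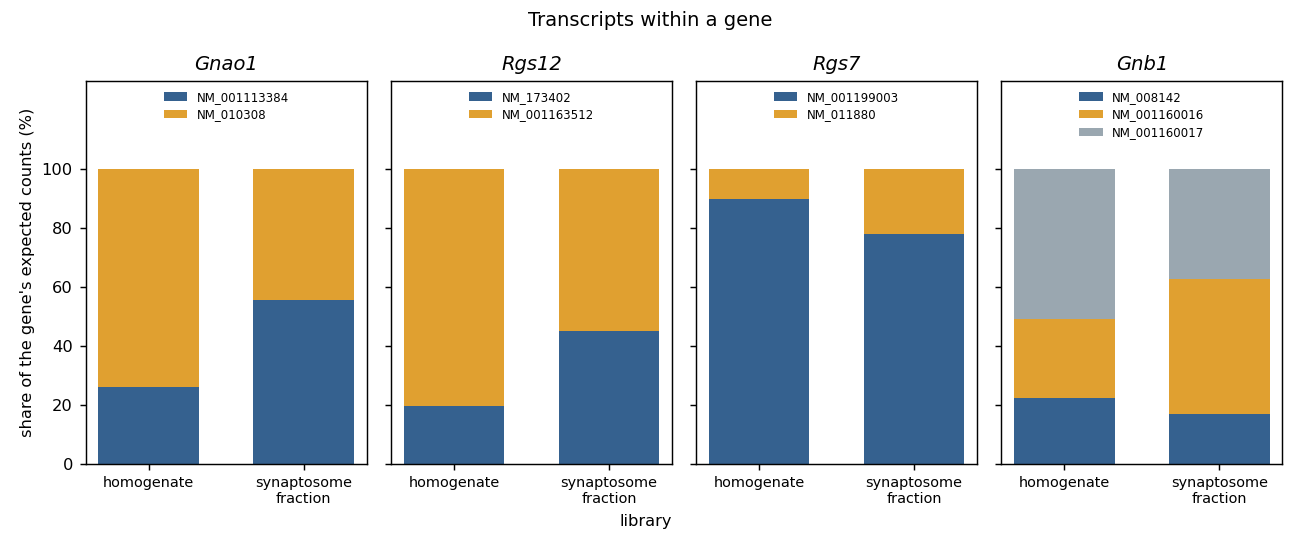
Stacked bars give each transcript's share of its gene's expected counts in percent, on an axis from 0, for the homogenate and the synaptosome library in 4 of the 5 genes with a share moved by 10 points or more. The GoB transcript of Gnao1 (NM_001113384) goes from 25.9% to 55.6%, and in Rgs12, Rgs7 and Gnb1 the transcripts that gain share are NM_173402, NM_011880 and NM_001160016.

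The partners of the G protein cycle were read from a list of 49 effectors and regulators, of which 46 were kept, 10 were higher and 3 lower, and the median log2 ratio was 0.06. These are 21.7% and 6.52% of those kept, beside 12.8% and 9.1% of all genes. Under library totals 4 were higher and 8 lower (median -0.44), where 4.49% and 25.6% of all genes were. Adenylyl cyclases, which make cAMP, supplied 5 of the 10 higher genes. Of 9 cyclases 5 were higher and 1 lower, and under library totals 3 stayed higher (Adcy1, Adcy5 and Adcy9) and Adcy4 stayed lower. Adcy1, the calcium-stimulated neuronal cyclase, was highest, with 8155 and 17153 counts and a ratio of 3.28 (3.20 to 3.37). Adcy5, the main cyclase of striatum, was at 3.09, Adcy9 at 3.00, Adcy2 at 2.44 and Adcy3 at 2.10. Genes as abundant as Adcy1, Adcy5 and Adcy2 had a median log2 ratio of 0.84. Adcy1 stood 0.87, Adcy5 0.78 and Adcy2 0.45 log2 units above that. Adcy4 was lower, with 72 and 9 counts, 5.12-fold (2.55 to 11.7), beside the endothelial markers, which were 3.22-fold to 15.0-fold lower, and their part was not tested. Adcy4 passed the filter only through the homogenate. Among the phospholipases C beta, Plcb3 was higher at 3.56 (3.12 to 4.06), the abundant Plcb1 was at 0.860 and Plcb4 at 0.687.

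cAMP is read by protein kinase A and removed by phosphodiesterases, and the genes for these showed another pattern than the cyclases. Of 6 protein kinase A subunits 0 were higher and 1 was lower, Prkar2b at 2.11-fold (1.85 to 2.41), and under library totals 3 were lower. Prkar1b, the most abundant, had 14972 and 5988 counts and was 1.60-fold lower (1.55 to 1.65), and Prkar2a was the single subunit above 1, at 1.27 (1.14 to 1.42), with 0 of 6 above 1 under library totals. Of 6 phosphodiesterases none was called. Pde2a was the most abundant and the highest at 1.53 (1.48 to 1.58), and Pde4b the lowest at 0.712. Summed TPM was 425.1 and 757.2 for the cyclases and 2038.8 and 946.5 for the kinase subunits.

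Other partners lay on both sides, and none of those called higher below stayed higher under library totals. The GIRK channels, opened by beta-gamma, had 0 of 4 genes called, with the abundant Kcnj9 at 1.37, Kcnj6 highest at 1.63 and Kcnj5 lowest at 1.04, and under library totals only 1 of the 4 lay above 1, with Kcnj9 at 0.971. Of 7 receptor kinases and arrestins 2 were higher: Arrb1 at 2.41 (2.32 to 2.49), the most abundant, and Adrbk1, the receptor kinase also called Grk2, at 2.09 (2.00 to 2.19), while Arrb2 was lowest at 0.582 (0.511 to 0.662). The exchange factors with an RGS domain, targets of Gna12 and Gna13, were split, with Arhgef12 higher at 2.10 (2.02 to 2.20) and Arhgef1 lower at 0.440 (0.385 to 0.501). Genes as abundant as Arrb1, Adrbk1 and Arhgef12 had a median log2 ratio of 0.84. Arrb1 stood only 0.42, Adrbk1 0.22 and Arhgef12 0.23 log2 units above that. Among alpha chaperones and GoLoco proteins, Gpsm3 was higher at 2.18 (1.45 to 3.30) from 43 and 60 counts, Ric8, the chaperone now named Ric8a, was the most abundant at 1.01, and Ric8b was lowest at 0.647. Of the proteins that bind beta-gamma, Pdcl3 was at 1.10 and Pdcl at 1.02, and both were below 1 under library totals. Pcp2, Pdc and Pdcl2 had 0 counts in both libraries.

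**Figure D4:**
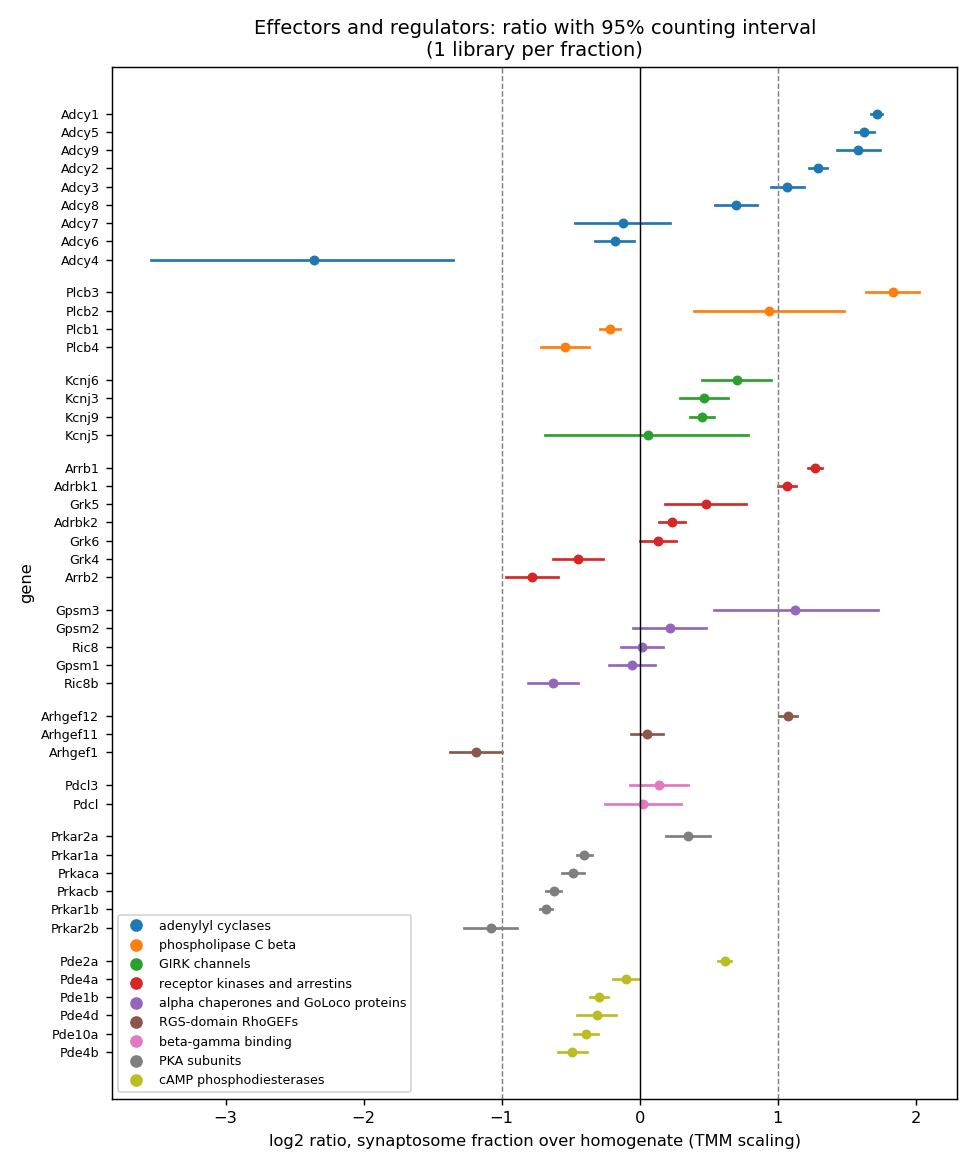
The horizontal axis is the log2 ratio of synaptosome fraction over homogenate for the 46 effectors and regulators kept, with 1 point per gene, 95% counting intervals as bars, colours for the 9 groups and dashed lines at 2-fold. The 5 cyclases called higher lie to the right of the 2-fold line, while 5 of the 6 protein kinase A subunits and 5 of the 6 phosphodiesterases lie below 0; under library totals every point would lie 0.49 further left.

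Some values carry a limit from the annotation. Gng3 shares 23.4% of its exon bases with Bscl2 on the opposite strand, which had 1235 and 1161 counts, Gngt2 shares 18.8% with Abi3 (67 and 71 counts), and Gng13 shares 17.6% with Chtf18 (24 and 13 counts). The labels name a stranded kit, but no source used here says whether counting took account of strand, so reads of such pairs cannot be told apart with certainty. Near-identical copies outside the files exist for Gng5, Gng10 and Rgs3, whose values are uncertain for that reason. Gng10 matches its copy over 958 bases at 99.8% identity, and Rgs3 matches its copy over 1410 bases.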

How the data were processed

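The data were 1 homogenate and 1 synaptosome RNA-seq library. Per the labels, RNA went through a stranded mRNA kit and was read as 100-base reads, with paired and single reads both named. The authors deposited expected counts per RefSeq transcript, estimated reads that need not be whole, together with posterior estimates of those counts. The deposited TPM values are relative to transcript length and library size, per the file headers. The authors also deposited a signal per gene, which equalled the summed count times 1 factor per library (0.7983 and 1.2527) within 0.5% for 99.21% and 99.38% of genes with at least 100 counts. The submitters' processing notes name RSEM 1.2.5, edgeR 3.0.6, TopHat 1.3.3 and FastQC, with mm10 as the build.

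Expected counts of 30383 transcripts were summed per gene and rounded. The whole table was then scaled by TMM (factors 1.186 and 0.843), using edgeR 4.0.16 under R 4.3.3, and the 14153 genes that averaged 1 CPM or more were kept. Counting intervals were exact (scipy 1.17.1) and cover neither the error of assigning reads nor differences between animals, and PCR copies are not independent molecules. A count of 0 was taken to allow up to 3 counts. Shares of transcripts were compared for genes with at least 100 counts in each library. Calculations were tested on simulated data.

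The members and lists were chosen with earlier results of these data known. All members are named. Full values are given for the 4 most abundant and the 3 highest and 3 lowest ratios of each class. The most abundant, highest and lowest of each effector group are named with their ratios, and transcripts whose share moved by 10 points with counts, shares and ratios. Ric8a is listed in the files as Ric8. Sequences are from GENCODE M21 on GRCm38, at exon coordinates equal to those in the files. Near-identical copies were sought with BLAST 2.17.0 (98% identity over 200 bases). Alternatives were library totals, DESeq2 1.42.0 size factors, TPM, the deposited signal, other filters, a 1.5-fold line, the most abundant transcript, centring on 20 bins of abundance and, added after the data were seen, the posterior estimates. No p-values were computed.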

Additional observations from a re-analysis of the deposited data

How the results depend on the processing

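Library totals, TPM and the 1.5-fold line moved several counts, and DESeq2 size factors moved none by over 1.5 times. Of all 44 members kept, 6 were higher and 13 lower under library totals (median log2 ratio -0.40), and 6 and 14 under TPM (median -0.45). Centred on genes of like abundance the median was -0.18, and with a 1.5-fold line 13 were lower. Of all genes kept, 4.49% were higher and 25.6% lower under library totals, and 3.99% and 27.6% under TPM. For alpha subunits, 1, 2 and 1 were lower under library totals, TPM and the 1.5-fold line, and the median was -0.15, -0.30, 0.10 and -0.14 under library totals, TPM, the most abundant transcript and centring. For beta subunits, 3, 3, 0 and 3 were lower under library totals, TPM, a 10 CPM filter and the 1.5-fold line, and the median was -1.28, -1.33 and -0.41 under library totals, TPM and that filter. For gamma subunits, 4 and 4 were higher and 2 and 2 lower under library totals and TPM, with medians of 0.80 and 0.76. For RGS genes, 0, 0 and 3 were higher and 7, 7 and 7 lower under library totals, TPM and the 1.5-fold line, with medians of -0.88 and -0.92 under the first pair. For the effectors, 4 and 4 were higher and 8 and 10 lower under library totals and TPM, with medians of -0.44 and -0.48. Single genes changed side of a ratio of 1 in 8 cases under library totals, 10 under TPM and 4 with the most abundant transcript, and in 0 of 44 under DESeq2 size factors, the deposited signal or the posterior estimates. No paired analysis was possible because each fraction had 1 library, and no library could be left out for the same reason. Low counts limit Adcy4, Gnb3, Gna15, Gng8, Gngt2 and the 10 members below the filter.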
